A study of Mus musculus with 6 samples.

Results

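Matrix metalloproteinases are zinc-dependent enzymes that cut collagens and other proteins of the extracellular matrix, and tissue inhibitors of metalloproteinases (TIMPs) bind and block them. Most of the enzymes are secreted as inactive proforms, whereas Mmp14 sits in the cell membrane and, together with the inhibitor Timp2, activates pro-Mmp2. In muscle they are known from fibroblasts, tendon cells, vessels and macrophages. The 10 genes described here are the proteases Mmp2, Mmp3, Mmp12, Mmp13, Mmp14 and Mmp19 and the inhibitors Timp1, Timp2, Timp3 and Timp4, taken by name from the 32285 genes of the count matrices.

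The tissue was the quadriceps of male C57BL/6 wild-type mice aged 2 to 3 months. The uninjured group had no injury, the subcritical group had a 2 mm injury, and the critical group had a 3 mm injury called volumetric muscle loss (VML), all with the time point day 7. Cells of 4 animals per group were tagged with 1 hashtag antibody per animal, pooled, stained with an antibody panel and run as 1 single-cell library per group, so group, pool, staining and library cannot be told apart. Muscles had been dissociated with collagenase II and dispase II and red cells lysed.

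After filtering, 2137 uninjured, 2829 subcritical and 3051 critical cells remained, with median depths of 1807, 1278 and 1589 unique molecular identifiers (UMIs, 1 per captured transcript). Between 26 and 32 cell barcodes of each library also occurred in another library. Levels are CPM, a gene's count scaled to the total UMIs of a class, with exact 95% Poisson intervals that cover counting error only. Each clustered class is called "X-like" because it rests on transcripts alone. FAP-like cells are fibro-adipogenic progenitors, the muscle's resident fibroblasts, and numbered 164, 755 and 910 in the uninjured, subcritical and critical libraries. Their 10 markers summed to between 47613 and 70670 CPM, against 156 to 1125 CPM in endothelial-like cells, but tenocyte-like cells held the same markers at 53082 to 56542 CPM. Tenocyte-like cells (31, 131 and 154 cells) were named from tendon markers. Their cluster 9 was led by Col2a1 and Chad, with Fmod, Cilp2, Tnmd, Kera, Col11a2 and Comp also among its 10 leading genes. Whether all of them are tendon cells was not tested. Mural-like cells are pericytes and smooth muscle (244, 159 and 219), endothelial-like cells line vessels (1301, 568 and 620), and macrophage-like cells numbered 31, 777 and 745.

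FAP-like cells fell into 3 clusters, and the libraries filled them unequally. Cluster 3, with Pi16 and Gsn among its 10 leading genes, held 157, 303 and 308 cells. Cluster 2, whose leading genes include Postn and Lrrc15, held 0, 328 and 455 cells. Cluster 11, of low depth, held 7, 124 and 147 cells. Cluster 2 had a narrow claim to its name: the mean log2 fold of its FAP markers over other clusters was 0.10, 0.32 above the next class, and that lead was 0.04 for cluster 11.

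Proteases of 1 genomic neighbourhood are shown first, because 3 members that lie close together on chromosome 9 were counted in 3 different cell classes. Mmp13, Mmp12 and Mmp3 belong to a run of 10 Mmp genes there. Promoter sequences from RefSeq (build GRCm38.p6) were found for 8 of the 10 members. The motif TGANTCA, the letters known to be bound by AP-1 factors and the same on both strands, occurred in the promoters of 3 of them, within 250 bases before to 50 after the start. Of all 32851 promoters of that length, 7.81% held it. Below are the 100 bases before each start with the match in capitals. They lie on the plus strand, at chr9:7272414-7272513 for Mmp13, chr9:7347274-7347373 for Mmp12 (1 of its 2 listed promoters, the other without a match) and chr9:7445722-7445821 for Mmp3.
Mmp13: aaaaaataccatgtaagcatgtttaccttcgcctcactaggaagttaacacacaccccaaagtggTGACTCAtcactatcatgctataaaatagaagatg
Mmp12: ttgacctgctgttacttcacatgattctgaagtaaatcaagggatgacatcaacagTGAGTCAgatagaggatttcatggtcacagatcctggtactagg
Mmp3: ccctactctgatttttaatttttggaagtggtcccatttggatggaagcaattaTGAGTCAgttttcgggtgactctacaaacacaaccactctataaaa
The match began 35 bases before the start in Mmp13, 44 in Mmp12 and 46 in Mmp3. It is a description of the sequence and says nothing of factor binding in these cells.

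By UMI counts, each of the 3 genes was found mainly in a different class. Of the Mmp13 UMIs, tenocyte-like cells held 228 of 273 (83.5%, exact binomial interval 78.6 to 87.7%) in the subcritical and 132 of 160 (82.5%) in the critical library. In the subcritical library 1 tenocyte-like cell held 193 of the 273, and FAP-like cells held 38. That subcritical share therefore rests on 1 cell, which its interval, treating UMIs as independent, does not cover. Of the Mmp12 UMIs, macrophage-like cells held 223 of 234 (95.3%) and 328 of 347 (94.5%). Of the Mmp3 UMIs, FAP-like cells held 50 of 52, 25 of 27 and 96 of 100 in the uninjured, subcritical and critical libraries. The clusters were computed with every Mmp, Timp, Adam and Adamts gene left out of the variable genes, so these shares do not follow from how classes were made.

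**Figure D1:**
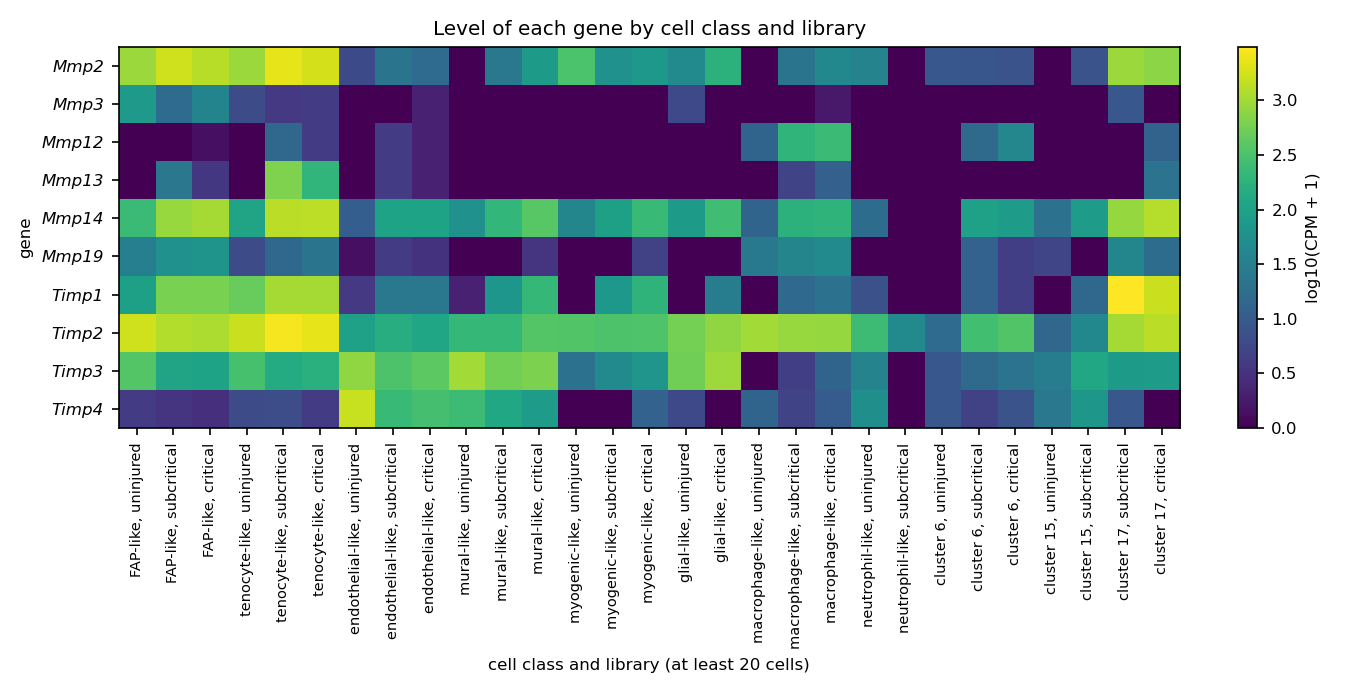
Colour gives the level of each gene as log10(CPM + 1) in every class and library with at least 20 cells. Mmp2, Mmp14, Timp1 and Timp2 are bright in FAP-like, tenocyte-like and cluster 17 columns, Mmp12 in injured macrophage-like columns, Timp3 in endothelial-like, mural-like and glial-like columns and Timp4 in the uninjured endothelial-like column (1549 CPM).

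Mmp2, a gelatinase that also cuts type IV collagen, was a stromal transcript in all 3 libraries. FAP-like cells held 72.6%, 73.9% and 69.0% of its UMIs in the uninjured, subcritical and critical libraries. They made up 7.67%, 26.7% and 29.8% of cells there, and held 11.7%, 34.0% and 37.8% of the UMIs of all genes. The Mmp2 level in FAP-like cells was 933 CPM (860 to 1011) uninjured, 1746 CPM (1682 to 1811) subcritical and 1319 CPM (1275 to 1364) critical. The 3 intervals do not overlap, and the subcritical library was highest. Across classes the order was tenocyte-like (2307 CPM subcritical, 1843 critical), then FAP-like, then cluster 17 (922 and 769 CPM). The uninjured tenocyte-like level of 928 CPM came from 31 cells, 10 of which held 86.5% of the UMIs, and its interval (797 to 1075) overlapped that of uninjured FAP-like cells. Endothelial-like, mural-like and macrophage-like cells were all below 100 CPM.

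Mmp14, the membrane protease that activates pro-Mmp2, was higher in both injured libraries in FAP-like and tenocyte-like cells. In FAP-like cells it stood at 239 CPM (203 to 280) uninjured, 880 CPM (834 to 927) subcritical and 1044 CPM (1005 to 1084) critical. Both injured libraries lay above the uninjured one, and the critical library above the subcritical one. In tenocyte-like cells it stood at 109 CPM (68 to 167), 1357 CPM (1238 to 1484) and 1379 CPM (1290 to 1471), where the injured libraries overlap. With every cell thinned to 1000 UMIs, the share of FAP-like cells with an Mmp14 UMI was 17.2%, 54.6% and 58.4% (46.3%, 69.0% and 73.6% unthinned).

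Mmp19, a protease of basement membrane proteins, was low in all classes. It reached 30.9, 57.7 and 63.3 CPM in FAP-like cells and 38.2 and 45.0 CPM in subcritical and critical macrophage-like cells. Those 2 classes held 60.8% and 29.4% of its 153 subcritical UMIs, against 34.0% and 24.8% of the UMIs of all genes. The intervals of the injured libraries overlap in both classes.

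Mmp3 (stromelysin-1), which cuts proteoglycans and activates other proforms, was lower in both injured FAP-like libraries. The levels were 77.3 CPM (57.3 to 102) uninjured, 15.5 CPM (10.0 to 22.9) subcritical and 37.0 CPM (30.0 to 45.2) critical. Few cells carry this result: 14 of 164 uninjured FAP-like cells had an Mmp3 UMI, and 10 of them held 92.0% of the UMIs. Within cluster 3 the levels were 78.1, 31.2 and 106 CPM, so there the critical library was not below the uninjured one, and cluster 2 held 8.57 and 8.96 CPM in the 2 injured libraries.

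Mmp13 (collagenase-3), which cuts fibrillar collagen, was listed at 0 in every uninjured cell. In tenocyte-like cells it was at 645 CPM in the subcritical and 200 CPM in the critical library. The subcritical value rests on 1 cell, which held 193 of the 273 Mmp13 UMIs of that library (70.7%) among 6982 UMIs. That cell also held 96 UMIs of the tendon gene Thbs4, but 0 of the tendon gene Tnmd. Without that cell the critical over subcritical log2 fold changed from -1.68 to 0.98. In the critical library the highest cell held 33 of 160 UMIs. Cells with at least 1 Mmp13 UMI numbered 8 of 131 and 14 of 154 tenocyte-like cells, against 12 of 745 critical macrophage-like cells.

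**Figure D2:**
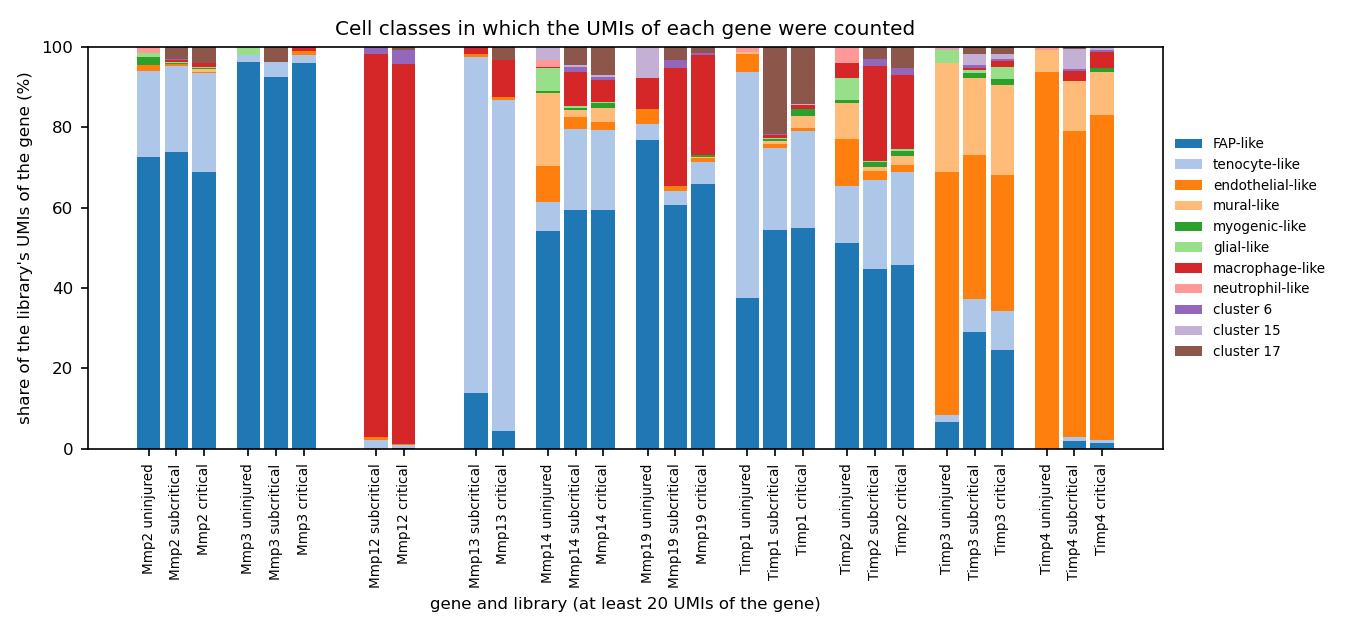
Each bar gives the share of a library's UMIs of 1 gene that was counted in each class, for genes with at least 20 UMIs in that library. FAP-like cells lead for Mmp2, Mmp3, Mmp14 and Mmp19, tenocyte-like cells for Mmp13, macrophage-like cells for Mmp12 and endothelial-like cells for Timp4. The subcritical Mmp13 bar rests mostly on 1 cell.

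Mmp12 (macrophage elastase) was a transcript of 1 of the 2 macrophage-like clusters. Cluster 7, led by Cxcl2, Mmp12 itself and Spp1, held 215 of the 223 subcritical and 316 of the 328 critical macrophage-like UMIs, at 429 and 470 CPM. Cluster 0, led by Mrc1 and C1q genes and holding more cells (576 and 517, against 201 and 228), was at 11.8 and 16.97 CPM. The uninjured library held 1 Mmp12 UMI, in 31 macrophage-like cells. Even in the injured libraries only 7.08% and 8.32% of macrophage-like cells had an Mmp12 UMI (7.53% and 6.64% after thinning), against 0.35% and 0.16% of endothelial-like cells.

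Macrophage-like cells allow a test across animals, since 4 subcritical and 4 critical animals each had 78 to 248 such cells with a hashtag. The samples behind these p-values are animals, and the libraries they came from are confounded with group. Cells were given to animals on hashtag counts whose lowest accepted value was 3 to 8 in these groups. Of 3872 genes tested with edgeR's quasi-likelihood test, 38 (0.981%) passed an adjusted p of 0.05. Of the 4 members tested, 0 passed, 0 had an unadjusted p under 0.05 and DESeq2 called 0 of 3. Mmp12 stood at 170, 98.2, 380 and 161 CPM in the subcritical animals and 101, 382, 201 and 199 CPM in the critical animals. The groups overlap over nearly their whole range, with a log2 fold of 0.16 (SE 0.53, interval -1.13 to 1.44, edgeR adjusted p = 0.98).

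The same held within cluster 7, where Mmp12 was concentrated. The subcritical animals were at 405, 247, 616 and 371 CPM and the critical animals at 240, 817, 394 and 319 CPM. The log2 fold there was 0.16 (SE 0.45, interval -0.92 to 1.23, edgeR adjusted p = 0.98, with 1.01% of 1976 genes called). The fold is negative without critical animal 2 (-0.36) or without subcritical animal 2 (-0.01). Before filtering, 101 of 448 critical Mmp12 UMIs were in barcodes left out for several hashtags, against 0 of 235 subcritical UMIs. The part of those barcodes in this comparison was not tested.

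Macrophage-like cells also held Timp2, Mmp14 and Mmp19. Timp2 was at 886, 1008, 1005 and 753 CPM in the subcritical and 716, 937, 805 and 907 CPM in the critical animals, a log2 fold of -0.17 (SE 0.12, interval -0.42 to 0.07, edgeR adjusted p = 0.72). Mmp14 was at 160 to 181 CPM in the subcritical animals and 156 to 265 CPM in the critical animals, with a log2 fold of 0.01 (interval -0.34 to 0.37). Mmp19 gave 0.07 (interval -0.56 to 0.70). The intervals leave room for changes of either sign, so they do not show that the 2 injuries acted alike. Cluster 0 and cluster 6, an unnamed cluster outside the macrophage-like class with Cd209a, Plbd1 and H2-Ab1 among its leading genes, could also be tested. Timp2 passed in neither, nor did Mmp14 in cluster 0 (57 of 2479 and 13 of 782 genes called, 2.30% and 1.66%). Of the 14 genes of the other protease lists tested in macrophage-like cells, 0 passed in edgeR and 0 of 12 in DESeq2, and 1, the tetraspanin gene Cd9, had an unadjusted p under 0.05.

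**Figure D3:**
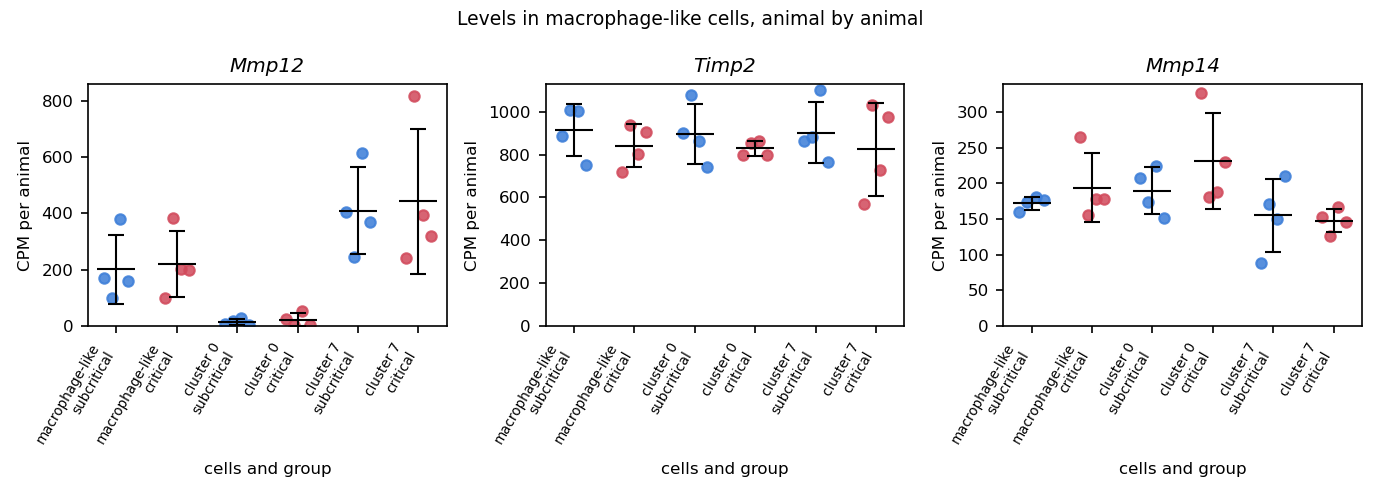
Points are animals, with CPM of Mmp12, Timp2 and Mmp14 in all macrophage-like cells, cluster 0 and cluster 7, for subcritical (blue) and critical (red) animals, and black bars are mean and SD. Mmp12 is near 0 in cluster 0 and between 240 and 817 CPM in cluster 7, and the 2 injury groups overlap in every column.

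Among the inhibitors, Timp1, the soluble TIMP that inflammation and growth factors are known to induce, was higher after injury in stromal cells. FAP-like cells were at 94.2 CPM (72.1 to 121) uninjured, 615 CPM (577 to 654) subcritical and 604 CPM (575 to 635) critical. The injured libraries overlap and both lie above the uninjured one. Tenocyte-like cells were at 480, 1054 and 1050 CPM. The highest levels were in cluster 17, an unnamed cluster of dividing cells found only among injured cells (0, 28 and 41 cells), at 3090 CPM subcritical and 1634 CPM critical. There 10 of the 28 subcritical cells held 86.2% of the UMIs, and the highest cell of that library alone held 117.

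Timp2, which both inhibits Mmp2 and helps Mmp14 to activate it, was counted in every class of at least 20 cells. In FAP-like cells it was at 1703 CPM (1604 to 1806) uninjured, 1241 CPM (1188 to 1297) subcritical and 1148 CPM (1107 to 1190) critical. The injured libraries lie below the uninjured one, but within cluster 3 the levels were 1714, 1514 and 1585 CPM, and cluster 2, present only after injury, was at 1099 and 975 CPM. Tenocyte-like cells went the other way, at 1611, 2796 and 2299 CPM. Macrophage-like cells held 23.8% and 18.5% of all Timp2 UMIs of the injured libraries, slightly below their 24.8% and 20.1% of the UMIs of all genes.

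Timp3, the matrix-bound inhibitor that also blocks ADAM proteases, was higher in vascular and glial-like cells than in FAP-like cells. It was at 1001, 563 and 623 CPM in mural-like cells, at 812, 322 and 413 CPM in endothelial-like cells and at 355 CPM (311 to 404), 108 CPM (92.5 to 125) and 106 CPM in FAP-like cells. In each of these classes both injured libraries lay below the uninjured one. Glial-like cells were at 538 CPM in 110 uninjured and 954 CPM in 35 critical cells, and their intervals (441 to 648 and 657 to 1340) do not overlap. In FAP-like cells the level was lower in cluster 2 (63.2 and 65.1 CPM) than in cluster 3 (350, 134 and 188 CPM).

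Timp4, an inhibitor known from heart and vessels, was counted mainly in vessel cells. Endothelial-like cells held 3903 of 4164 UMIs (93.7%, interval 93.0 to 94.5%) in the uninjured library, 154 of 202 subcritical and 260 of 321 critical. Its level there was 1549 CPM (1501 to 1599), 231 CPM (196 to 270) and 287 CPM (253 to 324). Mural-like cells followed at 246, 121 and 85.1 CPM. The endothelial-like cluster 4, led by Timp4, Car4 and Aqp1, was highest at 2414 CPM uninjured and held 652, 10 and 38 cells. The arterial-type cluster 5 (Sema3g, Gja5) was at 593, 132 and 249 CPM, and the venous-type cluster 12 (Ackr1, Selp) at 66.0, 0 and 15.8 CPM. Timp1, Timp3 and Timp4 lie within the spans of Syn1, Syn3 and Syn2, whose own counts over all barcodes were 22, 104 and 95. The spans of Mmp19, Timp2 and Mmp2 overlap Tmem198b, Cep295nl and Gm45472 (294, 53 and 3 counts). Whether exons of these genes overlap was not examined, and the strand setting of the counting is not stated in the sources used here.

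Endothelial-like cells could be compared between animals for Timp3 and Timp4. Animals needed 20 such cells with a hashtag, which 4 uninjured, 3 subcritical and 3 critical animals had (25 to 354 cells each). The share of endothelial-like cells with a hashtag was 49.7% uninjured, 26.4% subcritical and 30.5% critical. In the uninjured library it was 66.4% in cluster 4, 51.2% in cluster 1, 20.5% in cluster 5 and 21.4% in cluster 12. The tested uninjured cells therefore held more of cluster 4 than the whole class did. Against the uninjured animals, 311 of 1779 genes (17.5%) passed in the critical and 256 (14.4%) in the subcritical animals, and both comparisons share those control animals.

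Timp4 was at 2265, 1868, 1471 and 2491 CPM in the 4 uninjured animals. It was at 561, 269 and 417 CPM in the 3 subcritical and 478, 288 and 529 CPM in the 3 critical animals. Every injured animal was below every uninjured one. The level was 4.31-fold lower in critical animals (log2 fold -2.11, SE 0.22, edgeR adjusted p = 2.02e-06). It was 4.93-fold lower in subcritical animals (log2 fold -2.30, SE 0.25, edgeR adjusted p = 3.59e-06).

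Timp3 also fell, again with no overlap. The uninjured animals were at 608, 845, 823 and 809 CPM, the subcritical at 448, 225 and 298 CPM and the critical at 456, 360 and 473 CPM. The log2 fold was -0.82 (SE 0.18, edgeR adjusted p = 0.000849) in critical and -1.33 (SE 0.21, edgeR adjusted p = 1.78e-05) in subcritical animals. Between the 2 injuries neither gene passed, with log2 folds of critical over subcritical of 0.51 (interval -0.0072 to 1.03, edgeR adjusted p = 0.63) for Timp3 and 0.19 (interval -0.48 to 0.86, edgeR adjusted p = 0.93) for Timp4. In that comparison 8 of 1779 genes (0.450%) passed.

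The makeup of the endothelial-like class differed between groups, because cluster 4 was filled mostly by uninjured cells. Without cluster 4, an alternative chosen after seeing the data, Timp4 had log2 folds of -1.54 in critical and -1.65 in subcritical animals (edgeR adjusted p = 8.13e-06 and 1.62e-05). Timp3 had -0.66 and -1.30 (edgeR adjusted p = 0.0382 and 0.000268). Within cluster 1, led by Aplnr, the critical and uninjured groups had 3 animals each. There Timp4 was at 1737, 1576 and 2042 CPM uninjured and 540, 397 and 552 CPM critical, with a log2 fold of -1.82 (SE 0.21, edgeR adjusted p = 1.90e-06, with 9.24% of 779 genes called). Timp3 in cluster 1 had a log2 fold of -0.86 (SE 0.25, edgeR adjusted p = 0.0323). That call was lost with DESeq2 (adjusted p = 0.204) and with no filter on low counts (edgeR adjusted p = 0.318). Leaving out any 1 of the 6 animals lost it as well (edgeR adjusted p of 0.0507 to 0.180), with log2 folds of -0.94 to -0.74.

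**Figure D4:**
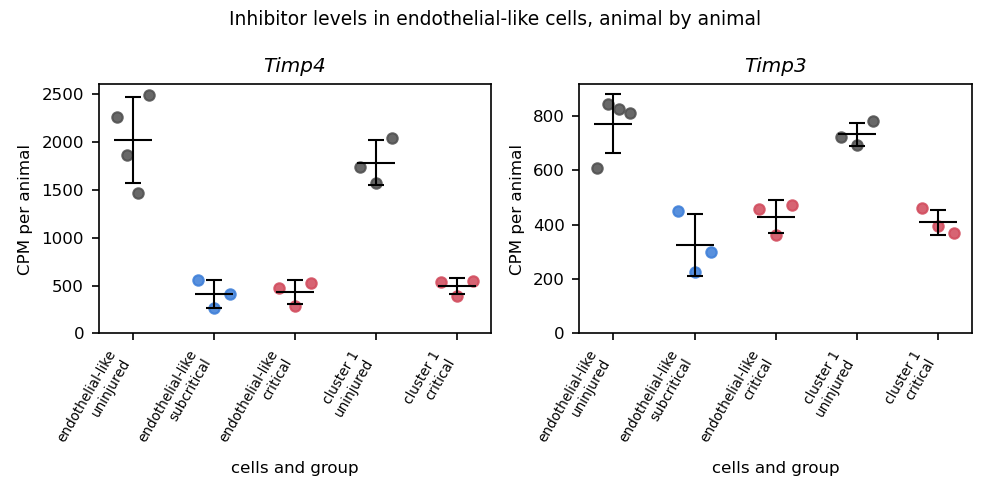
Points are animals, with CPM of Timp4 and Timp3 in all endothelial-like cells and in cluster 1, for uninjured (grey), subcritical (blue) and critical (red) animals, and black bars are mean and SD. All injured animals lie below all uninjured animals for both genes.

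Mmp14 in endothelial-like cells was too low to enter the test. The 4 uninjured animals were at 12.9, 7.78, 8.19 and 0 CPM, the subcritical at 0, 89.8 and 104 CPM and the critical at 55.5, 192 and 104 CPM. The group means of 7.23, 64.7 and 117 CPM rest on only 8, 13 and 26 UMIs, and a difference was not tested. The summed FAP markers in endothelial-like cells moved in the same direction (156, 1047 and 1125 CPM over the 3 libraries, with 1, 2 and 1 of the 10 markers at 0), and their part in the Mmp14 level was not tested. Of the 9 other protease-pathway genes tested in endothelial-like cells, 2 passed in critical against uninjured animals, where 17.5% of all genes did. Prss23, a serine protease, rose from 40.0 ± 18.9 CPM (SD, n = 4) to 161 ± 81.6 CPM (SD, n = 3), a log2 fold of 1.95 (SE 0.38, edgeR adjusted p = 0.000278). Adam10, a membrane sheddase, rose from 85.7 ± 19.1 to 167 ± 61.7 CPM, a log2 fold of 1.02 (SE 0.30, edgeR adjusted p = 0.0154), although its groups overlap. Both calls were lost without cluster 4 (log2 folds of 0.54 for Prss23 and 0.77 for Adam10, edgeR adjusted p = 0.390 and 0.223) and without critical animal 4 (edgeR adjusted p = 0.0622 and 0.15). Adam10 was also lost with DESeq2 (adjusted p = 0.0519), without critical animal 2 (edgeR adjusted p = 0.142), with at least 10 cells per animal and with no filter on low counts (edgeR adjusted p = 0.0829 in both). In subcritical against uninjured animals 0 of the 9 passed in edgeR (14.4% of all genes did) or in DESeq2, and 0 had an unadjusted p under 0.05.

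FAP-like cells, where most of the proteases were counted, had too few hashtags for a test: 6.71%, 4.50% and 5.71% of cells carried one. Each comparison is therefore between single libraries, and a log2 fold of at least 1 in size (a doubling, computed with 1 CPM added to each level) among genes averaging at least 5 CPM is named as large. Critical against uninjured, 18.3% of 10241 genes were that far apart, and 5 of the 7 members that reached 5 CPM were. Higher were Timp1 (log2 fold 2.67, counting interval 2.30 to 3.06), Mmp14 (2.12, 1.89 to 2.36) and Mmp19 (1.01, 0.35 to 1.73). Lower were Timp3 (-1.74, -1.996 to -1.48) and Mmp3 (-1.04, -1.54 to -0.53), but Mmp3 turned to 1.23 with the 10 cells richest in it left out of each library. That trimming was unequal: over all classes, the 10 richest cells held 88.5% of the uninjured and 52% of the critical Mmp3 UMIs. Mmp2 was at 0.50 and Timp2 at -0.57. The median over the 7 was 0.50, against -0.06 over all genes tested. Mmp12, Mmp13 and Timp4 did not reach 5 CPM.

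Subcritical against uninjured, 18.1% of 10171 genes were as far apart and 5 of 8 members were. Timp1 was at a log2 fold of 2.69, Mmp14 at 1.87, Timp3 at -1.71 and Mmp3 at -2.25. Mmp13, at 38 UMIs against 0, was at least 5.09-fold higher, with the uninjured level set at 3 counts over the library. Mmp2 (0.90) and Mmp19 (0.88) stayed just under the threshold. The uninjured library is shared by both comparisons.

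Critical against subcritical, 1.89% of 10127 genes were that far apart. Among 8 members, Mmp3 was higher in the critical library (log2 fold 1.204, counting interval 0.59 to 1.86, 96 against 25 UMIs) and Mmp13 lower (-2.73, -3.67 to -1.76, 7 against 38 UMIs). Both counts are small and both sit in few cells. The other 6 members were nearer to 0 on the log2 scale: Mmp2 at -0.40, Mmp14 at 0.25, Mmp19 at 0.13, Timp2 at -0.11 and Timp1 and Timp3 at -0.03.

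The FAP-like libraries differ in cluster makeup, so the folds were also taken within cluster 3. Critical over uninjured, Timp1 was at 1.87, Mmp14 at 1.73, Mmp19 at 1.37, Mmp2 at 0.87, Timp2 at -0.11 and Timp3 at -0.89, while Mmp3 turned to 0.44. Timp1 and Mmp14 were thus higher within 1 cluster as well, and Timp3 no longer reached a halving in the critical library. In the subcritical library the cluster 3 level of Timp3 given above was still more than halved. In cluster 3, 16% of 10059 genes were at least 1 apart. Macrophage markers in FAP-like cells summed to 290, 759 and 470 CPM (5 of 9 at 0 in the uninjured library and none in the injured ones). Tenocyte markers summed to 372, 2670 and 2214 CPM (1, 0 and 0 of 7 at 0), and their part in the FAP-like folds was not tested. No UMI of 7 macrophage and leukocyte genes was found in 154 of 164, 438 of 755 and 429 of 910 FAP-like cells. Over those cells alone, the log2 folds of critical over uninjured were 2.77 for Timp1, 2.14 for Mmp14, 1.004 for Mmp19, 0.49 for Mmp2, -0.52 for Timp2, -0.83 for Mmp3 and -1.73 for Timp3.

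**Figure D5:**
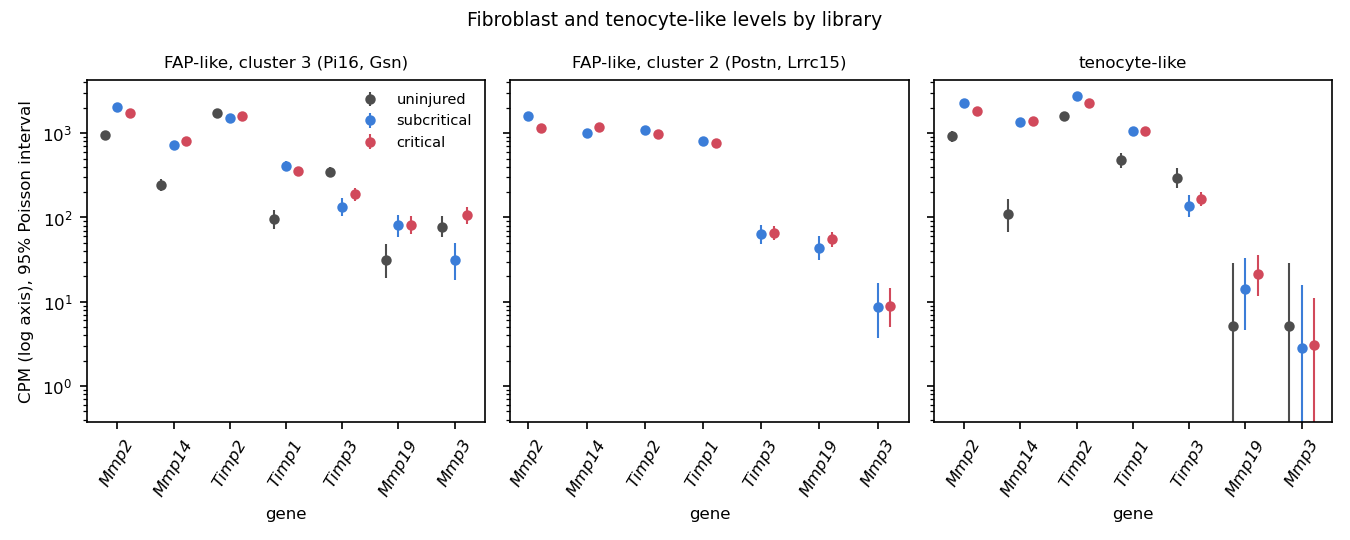
Points give CPM on a log axis with 95% Poisson intervals in FAP-like clusters 3 and 2 and in tenocyte-like cells, coloured by library (cluster 2 had 0 uninjured cells). Mmp14 and Timp1 are higher in the injured libraries in cluster 3 and in tenocyte-like cells, and Timp3 is lower.

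Tenocyte-like cells gave wider contrasts, against 31 uninjured cells. Critical over uninjured, 4 of the 7 members that reached 5 CPM were higher by a log2 fold of at least 1 and 0 lower. Mmp14 was at a log2 fold of 3.64 (counting interval 3.03 to 4.33), Timp1 at 1.13, Mmp2 at 0.99, Timp2 at 0.51 and Timp3 at -0.84, with 32.5% of 9742 genes at least 1 apart. Mmp13 was at least 12.8-fold higher, against 3 counts over the uninjured cells. Mmp19 was at 1.84 on 14 UMIs against 1 (counting interval -0.66 to 4.39). Subcritical over uninjured, 6 of 9 members were higher and 1 lower. Mmp14 was at 3.62, Mmp2 at 1.31, Timp1 at 1.14, Timp2 at 0.79 and Timp3 at -1.10, with 33.0% of 9871 genes at least 1 apart. Mmp13 was at least 41.2-fold higher, mostly from the single cell described above. Mmp19 and Mmp12 complete the 6, on 5 UMIs against 1 and 5 against 0. The Timp3 folds turned positive, to 0.71 and 0.12, once the 10 cells with most Timp3 were left out of every library, and the uninjured library had only 31 such cells to begin with.

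Mural-like cells also differed between libraries, with cluster 10 (Myh11) holding 189 of the 244 uninjured cells and cluster 8 (Rgs5) 163 of the 219 critical cells. Mmp14 was at 127, 251 and 453 CPM in cluster 8 and 41.0, 106 and 135 CPM in cluster 10 (uninjured, subcritical and critical). Timp1 in the whole class had 1, 14 and 83 UMIs. Mmp2 had 0, 5 and 31 UMIs. FAP markers in mural-like cells summed to 1050, 3070 and 6758 CPM, with 3, 5 and 2 of 10 at 0, in the same order as these 3 genes, and their part in the result was not tested. Timp3 was lower in the injured libraries in cluster 8, at 1646, 530.5 and 598 CPM. In cluster 10 the levels were nearer to each other, at 860, 633 and 723 CPM, with only 52 subcritical and 56 critical cells. Whether the cluster 10 differences exceed counting error was not tested.

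Of 65 other protease-pathway genes in the matrices, 46 reached 5 CPM in FAP-like cells for critical against uninjured. Of these, 12 were higher and 8 lower by a log2 fold of at least 1, where 8.85% and 9.48% of all genes were, and the median was 0.29. ADAM and ADAMTS proteases had 7 higher and 1 lower of 20. Adam12, a protease known from embryonic and regenerating muscle, stood at 3.09 CPM uninjured (2 UMIs), 158 CPM subcritical and 183 CPM critical. Adamts4, an aggrecanase, was higher (log2 fold 2.05) and Adamts5, another aggrecanase, lower (-1.36).

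The regulators of the system did not move one way. In critical against uninjured FAP-like cells, Plau, the plasminogen activator urokinase, was lower (log2 fold -1.42), as was Serpine2 (-1.17), a protease inhibitor. Reck, a membrane inhibitor of metalloproteinases, was lower (-1.92, 35 UMIs in each library). Tfpi2, a secreted protease inhibitor, was higher (2.20), Cd44, which anchors proteases at the cell surface, was higher (1.46), and Pcsk6, a proprotein convertase, was lower (-2.02). Of the remaining metalloproteinases, Mmp11 was higher (1.45, from 8 to 92 UMIs). Critical against subcritical, 1 of 46 list genes was higher and 0 lower, where 1.89% of all genes were that far apart.

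Genes whose levels most resembled each member were sought over 21 combinations of class and library, among 6943 genes. These correlations are a description, because the points share libraries and depth. Mmp2 was closest to Fndc1 and Cilp (Pearson r = 0.96 each) and Mmp14 to Postn and Col12a1 (0.94 each). Timp1 was closest to C1qtnf3 (0.91) and C1qtnf6 (0.91), Timp2 to Olfml3 (0.94) and Rnase4 (0.90), Timp3 to Klf9 (0.96) and Ccser2 (0.94), and Timp4 to Kctd10 (0.92) and Cyp4b1 (0.91). Mmp12 was closest to Psap (0.92) and Slc37a2 (0.89), Mmp13 to Kera (0.89) and Col11a2 (0.84), Mmp3 to Pdgfra and Clec3b (0.91 each), and Mmp19 to Scpep1 (0.86).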

How the data were processed

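The deposited values are raw UMI counts per gene and cell, which the authors made with cellranger 6.0.2 per the file headers. bcl2fastq, Cell Ranger and GRCm39 (mm39) are listed in the submitters' processing notes. The counting's strand setting is not given in the sources used here. All 3 libraries, of 4954129 to 7138662 UMIs, were used.

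The 10 members, the gene lists and the tests were chosen with earlier results of these data known. Cells needed at least 200 genes and 500 UMIs and at most 20% mitochondrial UMIs. Hashtags were called with a negative binomial mixture, and 57, 74 and 109 barcodes with several hashtags were removed. The lowest count accepted was 2 to 8 per hashtag, and uninjured hashtag 1 had 424 counts in all. Wrong calls would mix the animals of a pool, and their rate was not tested. Scrublet marked 0, 22 and 3 doublets, too few to have worked, so no cells were removed on it. Clusters came from scanpy 1.11.5 (2000 variable genes without 83 protease and inhibitor genes, 30 components, 15 neighbours, Leiden resolution 0.8). The rule that names them was settled after the clusters were seen: a clause that had left cluster 2 unnamed was dropped, and 1 that leaves clusters of dividing cells unnamed was added.

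Counts were summed per animal (at least 20 hashtagged cells, at least 3 animals per group) and tested in R 4.3.3 with edgeR 4.0.16 (TMM, filterByExpr, quasi-likelihood test, Benjamini-Hochberg over all genes tested), checked on simulated counts. Standard errors and 95% intervals of its log2 folds come from the F statistic and its degrees of freedom. Fits with 3 groups share 1 estimate of the spread. Other classes have 1 library per group and no test. Log2 folds there carry exact binomial intervals for counting error only. DESeq2 1.42.0, DESeq2 size factors, no filter, leaving out animals, other hashtag, cluster, doublet and depth rules, and other pseudocounts (0.5 and 5 CPM) were alternatives.

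Named genes are all members, list genes that passed a test, list genes of FAP-like cells averaging at least 20 CPM with a log2 fold of at least 1 (up to 6 each way, of which some are given), and the 2 closest genes of each member among classes with at least 50 cells. Some genes that this rule names are not reported here. Proteins of the members were not used here.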

Additional observations from a re-analysis of the deposited data

Results flagged for a closer look

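In endothelial-like cells of the 4 uninjured animals, Timp3 had 1 animal apart from the rest. Animal 1 was at 608 CPM, and the other 3 were between 809 and 845 CPM. The value of animal 1 rests on 29 cells and 47 Timp3 UMIs, against 114 to 354 cells and 201 to 543 UMIs in the others. The gap to the nearest animal was 0.849 of the group's range, above the limit used for 4 values. In all, 22 groups of animals were examined this way, and chance alone would mark about 1 in 20. Timp3 remained lower in injured animals in every alternative that left out 1 animal.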

How the results depend on the processing

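Timp3 and Timp4 in endothelial-like cells passed in both comparisons with uninjured animals under all 20 alternatives run for each. The 4 members tested in macrophage-like cells passed under none. Signs of those uncalled folds turned for critical over subcritical Mmp14: -0.014 with no filter on low counts, -0.026 at resolution 0.4, -0.042 at resolution 1.2, -0.056 with protease genes among the variable genes, -0.034 with classes by marker score and -0.051 with at least 1000 UMIs per cell. Timp2 in cluster 7 turned to 0.034 with a hashtag share of 70%. Leaving out 1 animal at a time, log2 folds of critical over subcritical ran from -0.27 to 0.68 for Mmp12, -0.11 to 0.11 for Mmp14 and -0.10 to 0.25 for Mmp19 in macrophage-like cells. In cluster 7 they ran from -0.36 to 0.48 for Mmp12, -0.33 to 0.0090 for Mmp14 and -0.18 to 0.063 for Timp2, and in endothelial-like cells from -0.061 to 0.39 for Timp4.
Numbers of genes called moved too. With a hashtag share of 70% they were 24 in macrophage-like cells and 23 in cluster 0, which had 37 with at least 1000 UMIs per cell. Classes by marker score gave 406 (subcritical against uninjured) and 13 (critical against subcritical) in endothelial-like cells. DESeq2 gave 37 in cluster 1 and 8 in cluster 7. Without cluster 4, endothelial-like cells gave 118 (critical) and 96 (subcritical against uninjured) over fewer genes. Leaving out 1 animal at a time gave 23 to 52 genes in macrophage-like cells (23 without critical animal 2, 25 without subcritical animal 4). Endothelial-like cells gave 191 to 327 for critical (191 and 200 without critical animals 2 and 4) and 160 to 252 for subcritical against uninjured (160 and 163 without subcritical animals 1 and 4). Cluster 0 gave 30 to 85 (30 without subcritical animal 3), cluster 1 gave 47 to 75 (47 without uninjured animal 2), cluster 6 gave 7 to 14 (7 or 8 without subcritical animal 3 or 4 or critical animal 4) and cluster 7 gave 8 to 23 (11 and 8 without subcritical animals 2 and 4).
In FAP-like cells, critical against uninjured, 3 members were past a log2 fold of 1 with a pseudocount of 5 CPM, within cluster 3 and without cluster 11 (added after seeing the data). Critical against subcritical, 1 was at resolution 1.2, without the 10 highest cells, within cluster 2 and within cluster 3. Without the 10 highest cells, which held a larger part of the uninjured than of the critical Mmp3 UMIs, Mmp3 critical over uninjured turned to 1.23. It was 0.44 within cluster 3. Critical over subcritical, Mmp14 was -0.069 within cluster 11 and Timp2 was 0.066 within cluster 3. In tenocyte-like cells (alternatives added after seeing the data), Timp3 turned to 0.71 and 0.12 without the 10 highest cells. Mmp13 critical over subcritical turned to 0.82 by marker score, 3.40 without the 10 highest cells and 0.98 without the single highest cell. Fewer than 10 subcritical tenocyte-like cells held Mmp13, so the sign of the 3.40 was fixed by leaving out 10 and says nothing of the groups. Shares of UMIs and of cells with a UMI, in each gene's leading class, moved outside their counting interval in 82 alternative results. They stayed inside it in 142. At resolution 1.2, FAP-like cells numbered 468 subcritical and 519 critical, with 467 and 580 cells unnamed. By marker score, tenocyte-like cells numbered 270 and 324. The shares printed above are those of the main classes. Except where a setting leaves out cells or genes, the cause was not tested. No paired analysis was possible because hashtag numbers mark different animals in each group.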
